A study of Mus musculus with 4 samples.

Results

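This report follows multicopy gene families named here after the 2-cell stage of the mouse embryo, in WT mESCs and mESCs that lost Haspin. Haspin is the kinase that phosphorylates threonine 3 of histone H3. Whether each member is particular to the 2-cell stage was not tested. A row of the count table was taken as a member when its symbol began with Usp17l, Tdpoz, Tcstv, Pramel or Pramef, or when its KEGG ortholog entry was that of translation initiation factor eIF1A, with the ordinary genes Eif1a and Eif1ax left out. This gave 52 members among 55401 rows, with 21 Eif1a-like genes, 9 Tdpoz, 7 Pramef, 7 Pramel, 6 Usp17l and 2 Tcstv genes. The antisense gene Pramef12os, the pseudogene Usp17le-ps and the gene named Pramel fell under the rule as well. Symbols and annotation picked the single rows, but the families themselves were chosen by their measured counts, since higher counts of several copies in Haspin KO than in WT were already known from these same libraries. Their values in that contrast are therefore a description, with no test of the members.

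RNA was sequenced from WT E14 mESCs and from Haspin KO mESCs, with 2 libraries in each group. E14 is a line of mouse embryonic stem cells, grown here in medium with serum, LIF and 2 inhibitors, on mitotically inactive mouse embryonic fibroblasts or, for assays, on gelatin. The knockout was made in E14 cells by CRISPR with a pair of gRNAs, and single clones without H3T3 phosphorylation were kept as 2 lines, but the labels do not say which line gave which library. They also do not say whether the libraries of a group came from separate cultures, so the spread between them may be technical. Library totals were 14207828 to 21834847 counts, with a WT to Haspin KO ratio of 1.37 between the mean totals. Haspin itself fell from 875 and 619 counts in WT to 149 and 209 counts in Haspin KO, a log2 fold change of -1.60 (standard error 0.16). Of 8 stem cell markers, edgeR called 0 (2 were lower at an unadjusted p under 0.05), whereas 6 of 8 fibroblast markers fell. Levels are given as CPM, counts relative to the library total, scaled by TMM normalization. The summed level of the fibroblast markers was 195.2 and 146.9 CPM in WT against 22.5 and 24.3 CPM in Haspin KO, and Lox and Postn had 0 counts in both Haspin KO libraries. Fbn1 and Thy1 were not called. Most of the Haspin KO sum was Fbn1, with 21.5 and 19.4 CPM in WT and 17.4 and 20.7 CPM in Haspin KO.

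In the mouse, transcription of the embryonic genome starts mainly at the 2-cell stage, and a set of young, tandemly copied families is switched on there for a short time. A small and changing fraction of cultured mESCs passes through a state with the same transcripts, the 2-cell-like state, for which the Zscan4 genes are the usual marker. The copies of some of these families are so alike that short reads cannot always be given to 1 of them.

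The Eif1a-like family makes this visible. Its members code for relatives of eIF1A, the initiation factor that helps the small ribosomal subunit scan for the start codon. Of the 21 genes, 20 lie on chromosome 12 of GRCm38 (mm10), from 87494721 to 88329682, within 835 kb, with 13 on the plus and 7 on the minus strand. The stretch printed here covers bases 271 to 420 of the 435 coding bases in the 5 copies with the most counts and in Eif1ax, the ordinary X-linked gene. It was taken because 10 of the 17 positions at which the 5 copies differ lie in it. In the copies, capitals mark the positions at which the 5 are not all alike. In Eif1ax, capitals mark the bases that none of the 5 copies has. The exact places are chr12:87876855-87877004 (plus strand) for Gm2016, chr12:88321062-88321211 (minus) for Gm5039, chr12:88271569-88271718 (minus) for Gm5662, chr12:87517167-87517316 (plus) for Gm8300, chr12:88249681-88249830 (minus) for Gm8332 and, over its introns, chrX:159379745-159382770 (plus) for Eif1ax.
Gm2016: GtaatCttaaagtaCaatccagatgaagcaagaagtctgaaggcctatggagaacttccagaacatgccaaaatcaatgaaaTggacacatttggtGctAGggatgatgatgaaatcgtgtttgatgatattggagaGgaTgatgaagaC
Gm5039: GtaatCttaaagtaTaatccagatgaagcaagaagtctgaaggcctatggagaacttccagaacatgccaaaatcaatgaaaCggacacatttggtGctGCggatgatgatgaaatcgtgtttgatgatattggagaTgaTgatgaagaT
Gm5662: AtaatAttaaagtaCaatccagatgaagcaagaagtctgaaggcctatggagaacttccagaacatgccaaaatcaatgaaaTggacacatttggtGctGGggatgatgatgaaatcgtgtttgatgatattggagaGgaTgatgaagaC
Gm8300: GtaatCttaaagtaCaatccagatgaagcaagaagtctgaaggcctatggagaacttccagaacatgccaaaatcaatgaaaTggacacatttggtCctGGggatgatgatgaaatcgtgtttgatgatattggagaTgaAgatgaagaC
Gm8332: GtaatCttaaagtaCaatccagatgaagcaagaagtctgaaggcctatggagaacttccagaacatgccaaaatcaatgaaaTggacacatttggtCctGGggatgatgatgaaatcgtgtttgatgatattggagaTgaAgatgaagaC
Eif1ax: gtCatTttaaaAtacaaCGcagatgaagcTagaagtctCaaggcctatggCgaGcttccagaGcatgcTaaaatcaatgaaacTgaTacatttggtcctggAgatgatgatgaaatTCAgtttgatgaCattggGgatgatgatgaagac
In this stretch Gm8300 and Gm8332 read the same. Over all 435 coding bases the 5 copies were 97.0 to 99.5% identical to each other, and the 14 tested copies with an annotated coding sequence were 83.7 to 85.3% identical to Eif1ax. The family is thus far closer within itself than to Eif1ax, and identity to Eif1a was not computed.

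Promoters could be read from RefSeq for 21 members whose listed start lay within 2000 bases of the start in the count table. The stretches shown lie upstream of both starts, are taken from GRCm38.p6 and run 5′ to 3′ on the gene's strand, with capitals for runs of at least 10 bases present in all 3 copies shown. Each stretch was cut to the part that holds these shared runs, with a few flanking bases. Its identity is therefore that of a part chosen for being alike, in 3 picked copies, and not of whole promoters. For Usp17l the places are chr7:104856840-104856955 (plus strand) for Usp17la, chr7:104842629-104842744 (minus) for Usp17lb and chr7:103252630-103252745 (minus) for Usp17ld.
Usp17la: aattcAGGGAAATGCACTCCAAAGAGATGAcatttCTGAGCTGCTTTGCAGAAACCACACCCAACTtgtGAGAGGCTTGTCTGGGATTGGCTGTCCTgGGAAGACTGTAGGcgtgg
Usp17lb: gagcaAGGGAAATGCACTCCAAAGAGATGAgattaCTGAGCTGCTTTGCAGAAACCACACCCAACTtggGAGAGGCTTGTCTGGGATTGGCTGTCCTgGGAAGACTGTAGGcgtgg
Usp17ld: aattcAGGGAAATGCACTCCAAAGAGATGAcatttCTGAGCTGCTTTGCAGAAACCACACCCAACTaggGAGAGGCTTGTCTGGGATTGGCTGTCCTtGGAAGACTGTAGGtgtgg
These 116 bases were 92.2 to 96.6% identical in pairs, and 97 of them were in shared runs. The places for the Eif1a-like copies are chr12:87816440-87816513 (plus) for BB287469, chr12:87618731-87618804 (plus) for Gm4027 and chr12:87775820-87775893 (minus) for Gm21319.
BB287469: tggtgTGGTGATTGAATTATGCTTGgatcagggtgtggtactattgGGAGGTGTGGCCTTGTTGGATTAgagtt
Gm4027: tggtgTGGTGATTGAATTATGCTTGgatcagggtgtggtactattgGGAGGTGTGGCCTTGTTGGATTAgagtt
Gm21319: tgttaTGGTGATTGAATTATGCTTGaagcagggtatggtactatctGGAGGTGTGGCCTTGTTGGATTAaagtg
BB287469 and Gm4027 were identical over these 74 bases, and Gm21319 was 87.8% identical to each. Short motifs were looked for on both strands in the 250 bases before each start. CCAAT was present in 14 of the 21 member windows, and among them in all 4 Usp17l windows, against 34.5% of 27025 mouse promoters of that length. In the printed Usp17l stretch it lies on the other strand, in the run GGGATTGGCTG. TATAAA was present in 5 of 21 windows (13% of all promoters), with Usp17lb, Usp17lc and Usp17ld among them, and was not found in that of Usp17la. TGCACAC was in the window of Gm6803 alone (3.5% of all promoters), and GATTNAATC was in 0 of 21 (0.3%). These matches describe the windows and say nothing of a factor that binds there.

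Of the 52 members, 7 had no count in any library and 14, these included, had at most 3 counts in each, the number of counts taken as the floor. The 30 members with enough counts for edgeR's filter were 15 Eif1a-like, 5 Usp17l, 4 Pramef, 3 Pramel, 2 Tdpoz and 1 Tcstv gene. In the fit of all 15580 genes, a gene was called when its adjusted p was under 0.05 and its fold change over 2. Among the members, Gm2016, Gm5039, Gm5662, Gm8300 and Usp17lb were called higher in Haspin KO, against 0.327% of all genes tested. Called lower were 0 members, with edgeR as well as with DESeq2, against 0.501% of all genes. At an unadjusted p under 0.05 in edgeR, 20 of the 30 members were higher and 1, Pramef12, was lower. No share of all genes was taken at that cutoff anywhere in this report, so such counts have no background beside them. Usp17lb was the 1 member still called without WT replicate 1, without WT replicate 2 or without Haspin KO replicate 1, and 14 members were called without Haspin KO replicate 2. At this threshold Gm8332 was just outside, with a log2 fold change of 1.09 that was near those of the 4 called Eif1a-like copies. Both Haspin KO libraries lay above both WT libraries for 21 of the 30 members (25.3% of all genes) and below them for 1, Pramef12 (26.9% of all genes). The median log2 fold change was 1.12 over the 30 members and -0.0039 over all genes tested. Since the contrast was known when the families were chosen, nothing is read from these shares.

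The plot of summed levels by family sets the 6 families side by side. The counts summed over the Eif1a-like copies were 61.2 and 56.7 CPM in WT and 156.7 and 100.2 CPM in Haspin KO. Those of Usp17l were 18.9 and 16.9 CPM in WT and 47.6 and 32.6 CPM in Haspin KO, and those of Tdpoz were 1.69 and 1.61 CPM against 4.74 and 3.71 CPM. In these 3 families both Haspin KO libraries were above both WT libraries, as for 25.3% of all genes tested. The Pramef sum was 150.1 and 150.8 CPM in WT and 147.3 and 139.6 CPM in Haspin KO, so the Haspin KO libraries lay slightly below WT. The Pramel sum of 49.0 and 34.5 CPM in WT overlapped with 55.4 and 36.5 CPM in Haspin KO, and the Tcstv sum of 0.641 and 1.10 CPM overlapped with 1.11 and 0.841 CPM. In bulk RNA, more cells in the 2-cell-like state and more RNA of these genes per cell cannot be told apart.

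**Figure D1:**
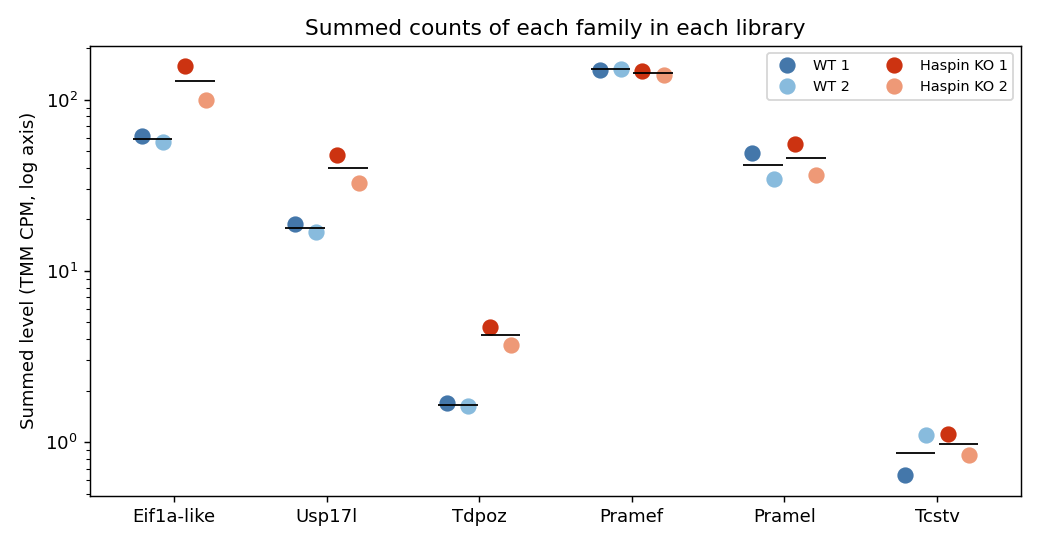
Summed level of each family (TMM CPM, log axis) in each of the 4 libraries, with a black line at each group mean of 2 libraries. Both Haspin KO points lie above both WT points for the Eif1a-like, Usp17l and Tdpoz families and not for Pramef, Pramel and Tcstv.

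For the Eif1a-like family, the raw counts summed to 1337 and 984 in WT and to 2250 and 1430 in Haspin KO, in spite of the smaller Haspin KO totals. The log2 fold change of the sum was 1.12 (standard error 0.17). It was 0.77 without Haspin KO replicate 1 and 1.41 without Haspin KO replicate 2. The 2 Haspin KO libraries were thus farther from each other than the 2 WT libraries, at 1.56 and 1.08 times.

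Most of the family's counts fell on few copies. Gm2016 had 220 and 199 counts in WT and 413 and 270 counts in Haspin KO. Gm5039 had 232 and 163 counts in WT and 368 and 255 in Haspin KO. Gm5662 had 251 and 185 counts in WT and 435 and 258 in Haspin KO. For all 3, both Haspin KO libraries were above both WT libraries in CPM (25.3% of all genes tested), and Haspin KO replicate 1 was the highest. Gm8300 had 257 and 170 counts in WT and 419 and 265 in Haspin KO, with the same order of groups. The log2 fold changes of these 4 copies were 1.15 for Gm2016, 1.12 for Gm5039, 1.12 for Gm5662 and 1.14 for Gm8300 (standard errors 0.18 to 0.22). Within a library the 4 copies had nearly equal counts, and the highest was 1.06 to 1.22 times the lowest. Together they held 71.8 to 73.3% of the family's counts in every library. The split between these copies and the rest of the family was thus nearly the same in both groups.

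Gm8332 stood apart in its level per length. It had 160 and 111 counts in WT and 267 and 152 in Haspin KO, on a gene model of only 435 bases, the length of the coding sequence, against 1766 to 1873 bases for the 4 called copies. Its deposited FPKM, a level per length of the gene model, was 16.85 and 14.62 in WT and 43.20 and 24.20 in Haspin KO. That of Gm2016, by comparison, was 5.71 and 6.46 in WT and 16.46 and 10.59 in Haspin KO. Every one of the 336 windows of 100 bases in the Gm8332 transcript was also present, unchanged, in the transcript of another gene of the family.

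The other 10 Eif1a-like copies tested had 3 to 77 counts in a library. Gm4027 had 40 and 39 counts in WT and 72 and 57 counts in Haspin KO, with a log2 fold change of 1.15 (standard error 0.27). Gm2035 had 36 and 24 counts in WT and 77 and 38 in Haspin KO, with 1.39 (0.37). BB287469, whose coding sequence equals that of Gm4027, had 25 and 22 counts in WT and 44 and 27 in Haspin KO, with 1.04 (0.35). In these 3 copies the Haspin KO libraries were above the WT libraries (25.3% of all genes tested). The same order held for Gm2022, Gm2056, Gm2075 and Gm8607, with log2 fold changes of 0.64, 1.30, 1.49 and 1.92 (standard errors 0.33, 0.51, 0.46 and 0.57). The groups overlapped for Gm21319, Gm5788 and Gm6803, whose log2 fold changes were 1.12, 0.62 and 0.20 (0.61, 0.42 and 0.56). The value of Gm21319 came from 30 counts in Haspin KO replicate 1 against 8 in replicate 2, and without replicate 1 it was -0.11. The 6 remaining copies had at most 8 counts in a library.

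**Figure D2:**
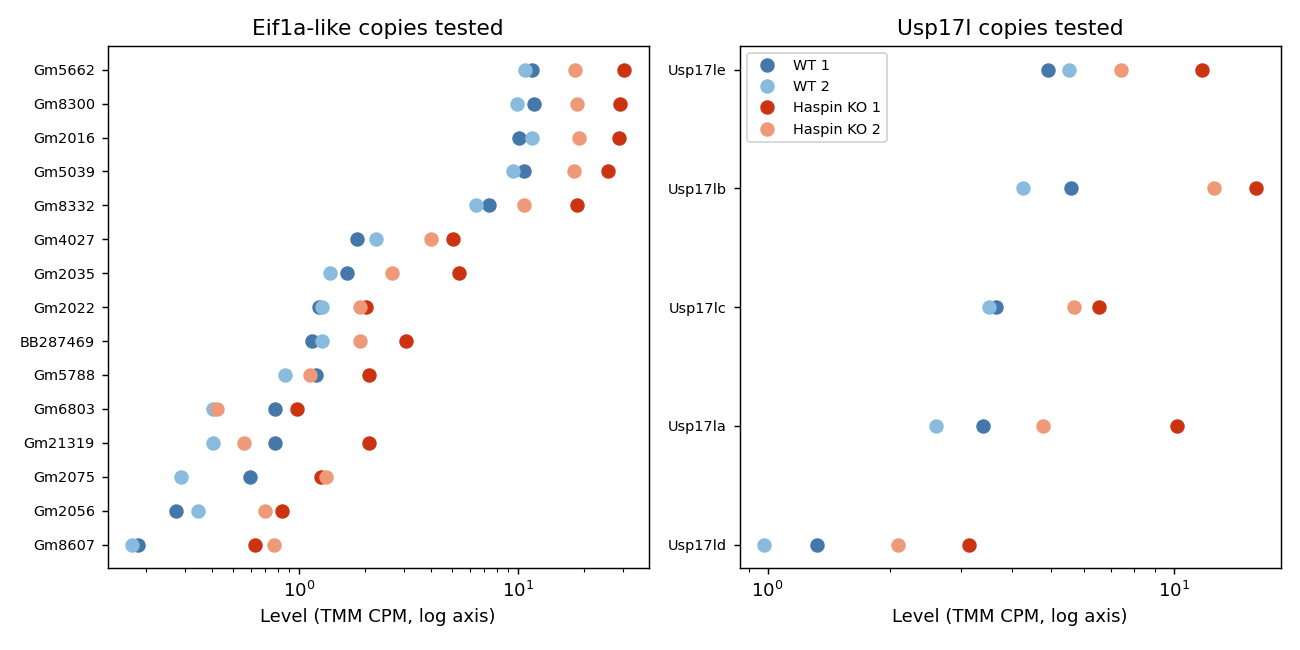
Level of each tested Eif1a-like and Usp17l copy (TMM CPM, log axis) in the 4 libraries, ordered by the mean of WT. Haspin KO replicate 1 is above replicate 2 in 13 of 15 Eif1a-like and in 5 of 5 Usp17l copies.

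The copies differed in how much of their sequence they share. The share of 100-base windows of a transcript that also occur in another gene was 3.8% for Gm5039, 6.5% for Gm21319 and 10.8% for Gm8300. It was 58.4% for Gm5662, 64.7% for Gm2016, 91.3% for BB287469 and 91.4% for Gm4027. The 3 copies under 15% had log2 fold changes of 1.12 to 1.14, and the 6 copies from 60% upward had 0.20 to 1.15. So Gm5039, with few windows that occur unchanged in another gene, showed about the same difference as Gm8332, whose windows are all shared. A single mismatch is enough to make a window unshared. The coding sequence of Gm5039 is 97.0 to 97.5% identical to those of Gm2016, Gm5662, Gm8300 and Gm8332. Whether reads shared between copies shape these values was not tested. How the counting treated reads that map to several places is not given in the sources used here.

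**Figure D3:**
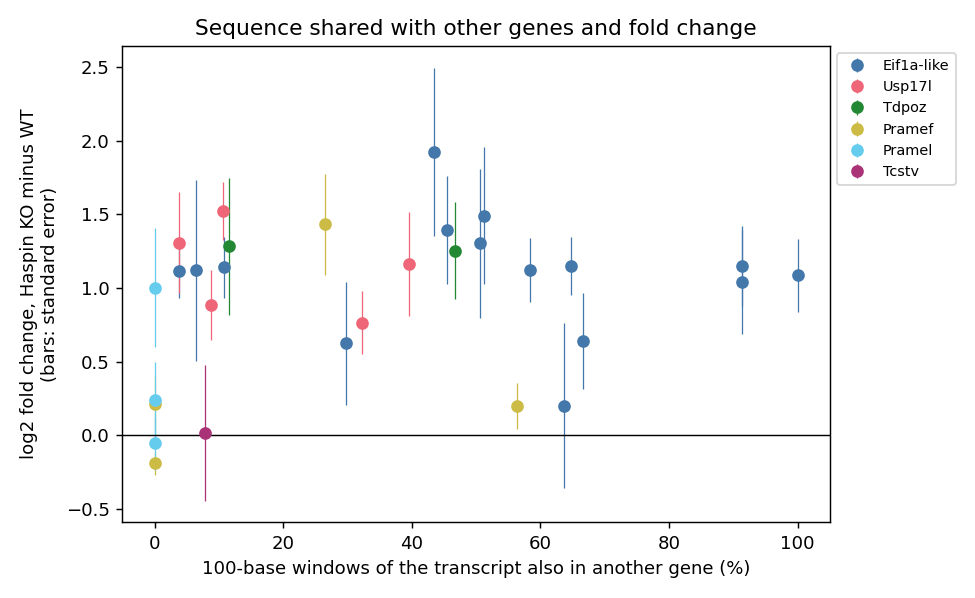
Log2 fold change (Haspin KO minus WT, bars for the standard error) of the 30 tested members against the percentage of 100-base windows of their transcript that also occur in another gene. Eif1a-like copies near 1.1 on the log2 scale are found at 3.8% as well as at 100% shared windows.

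The ordinary relatives of the family were near their WT levels. Eif1ax had 131.8 and 141.5 CPM in WT and 109.5 and 128.6 CPM in Haspin KO, a log2 fold change of -0.20 (standard error 0.09). Eif1a, the other ordinary gene, had a log2 fold change of 0.14 (0.09). Of 19 single-copy relatives and partners of the families, 19 were tested and edgeR called 0 in either direction (2 were higher at an unadjusted p under 0.05), with a median log2 fold change of 0.0041.

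The Usp17l genes encode small deubiquitinating enzymes, which take ubiquitin off other proteins, and include enzymes first found as induced by cytokines in blood cells. All 6 lie on chromosome 7, from 103249737 to 104862667. Their counts summed to 412 and 293 in WT and to 683 and 465 in Haspin KO. The log2 fold change of the sum was 1.16 (standard error 0.17), and it was 0.87 without Haspin KO replicate 1.

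Usp17lb was the Usp17l copy that was called. It had 122 and 74 counts in WT and 229 and 180 counts in Haspin KO, which is 5.58 and 4.27 CPM against 15.9 and 12.6 CPM. Its 2 Haspin KO libraries were 1.26 times apart in CPM and both well above the higher WT library, with a log2 fold change of 1.52 (standard error 0.20). With any 1 library left out the value stayed between 1.35 and 1.74. Usp17lb took 29.6 and 25.3% of the family's counts in WT and 33.5 and 38.7% in Haspin KO. Per length it was the strongest copy in Haspin KO, with an FPKM of 10.33 and 7.99, whereas in WT its 3.58 and 2.72 lay beside the 2.47 and 2.77 of Usp17le.

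Usp17la starts 14.4 kb from Usp17lb, on the opposite strand, so that the 2 genes point away from each other. It had 74 and 45 counts in WT and 146 and 68 in Haspin KO, with a log2 fold change of 1.31 (standard error 0.34). Haspin KO replicate 1 was 2.13 times replicate 2 in CPM, the widest gap of the family. Usp17lc had 80 and 61 counts in WT and 94 and 81 in Haspin KO, with 0.76 (0.21), the smallest difference of the family. Its near twin Usp17ld, 98.4% identical over the coding sequence, had 29 and 17 counts in WT and 45 and 30 in Haspin KO, with 1.16 (0.35). Usp17le had 107 and 96 counts in WT and 169 and 106 in Haspin KO, with 0.88 (0.24). In all 5 copies both Haspin KO libraries were above both WT libraries, as for 25.3% of all genes tested. Windows shared with another gene made up 3.8% of the Usp17la transcript, 10.6% of Usp17lb, 8.7% of Usp17le, 32.3% of Usp17lc and 39.5% of Usp17ld. The pseudogene Usp17le-ps had no count.

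The Tdpoz genes encode proteins with a TRAF and a POZ domain, the same pair of domains as Spop, which brings substrates to the ubiquitin ligase Cul3. The 9 copies lie on chromosome 3 between 93068823 and 94072644. They were near the limit of detection, with summed counts of 37 and 28 in WT and 68 and 53 in Haspin KO and a log2 fold change of the sum of 1.35 (standard error 0.28). Tdpoz3 had 23 and 16 counts in WT and 33 and 35 in Haspin KO, with 1.25 (0.33). Tdpoz4 had 10 and 10 counts in WT and 23 and 13 in Haspin KO, with 1.28 (0.46). For both, the Haspin KO libraries lay above the WT libraries in CPM (25.3% of all genes tested). The remaining 7 copies had at most 7 counts in a library, and Tdpoz6 and Tdpoz7 had none. Cul3 and Spop, tested among the relatives, had log2 fold changes of 0.26 and 0.09.

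Pramef and Pramel genes encode leucine-rich repeat proteins of the PRAME family, of which Pramel7 is known for leading the DNA methylation factor Uhrf1 to degradation. On chromosome 4, the 7 Pramef genes lie between 143412426 and 144408464 and 3 Pramel genes among or beside them, whereas Pramel6 and Pramel7 lie within 22 kb of each other on chromosome 2. Their copies are less alike than those of the Eif1a-like family. Coding sequences of the tested copies were 58.2 to 72.8% identical in pairs for Pramef and 54.6 to 57.6% for Pramel. In WT these 2 families held most of the counts among the members, and their most abundant copies lay near their WT levels. Pramef12 had 2513 and 2082 counts in WT and 1439 and 1512 in Haspin KO, or 115.0 and 120.1 CPM against 100.2 and 105.9 CPM. The WT libraries were the higher ones by a small amount, with a log2 fold change of -0.19 (standard error 0.08). In WT, Pramef12 alone was above the summed level of the 2-cell-like markers given below, 70.3 and 65.5 CPM. It held 68.0 to 79.6% of the Pramef counts and so set the family sum, whose log2 fold change was -0.07 (0.07). Without Pramef12 and its antisense gene the sum had 0.29.

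Pramef17 had 445 and 304 counts in WT and 358 and 267 in Haspin KO, with a log2 fold change of 0.20 (standard error 0.16). Pramef8 had 264 and 191 counts in WT and 229 and 156 in Haspin KO, with 0.22 (0.19). The libraries of the groups overlapped for both. Pramef25 was different from these, with 35 and 19 counts in WT and 65 and 41 in Haspin KO. Its log2 fold change was 1.43 (0.34), and it was not called. Both of its Haspin KO libraries were above both WT libraries in CPM, as for 25.3% of all genes tested. Windows shared with other genes made up 26.5% of the Pramef25 transcript and 56.3% of that of Pramef17, and Pramef12 and Pramef8 share none. Pramef6, under the filter, had 11 and 10 counts in WT and 20 and 9 in Haspin KO. Pramef20, singled out after its values were seen, went the other way with 10 and 4 counts in WT and 1 count in each Haspin KO library.

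Pramel6 had 535 and 260 counts in WT and 422 and 250 in Haspin KO, with a log2 fold change of 0.24 (standard error 0.26). Pramel7 had 503 and 324 counts in WT and 340 and 237 in Haspin KO, with -0.05 (0.18). Replicate 1 was the higher one in both groups for both genes, at 24.5 against 15.0 CPM in WT and 29.4 against 17.5 CPM in Haspin KO for Pramel6, so the replicates differed more than the groups. Uhrf1 had a log2 fold change of -0.12 (0.07). Pramel1 had 23 and 12 counts in WT and 20 and 31 in Haspin KO, with 1.00 (0.40) and Haspin KO replicate 2 as the highest library. The Pramel sum without Pramel6 and Pramel7 had a log2 fold change of 0.95, on few counts. Pramel3, Pramel4 and Pramel5 had at most 8 counts in a library and the gene named Pramel had none.

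**Figure D4:**
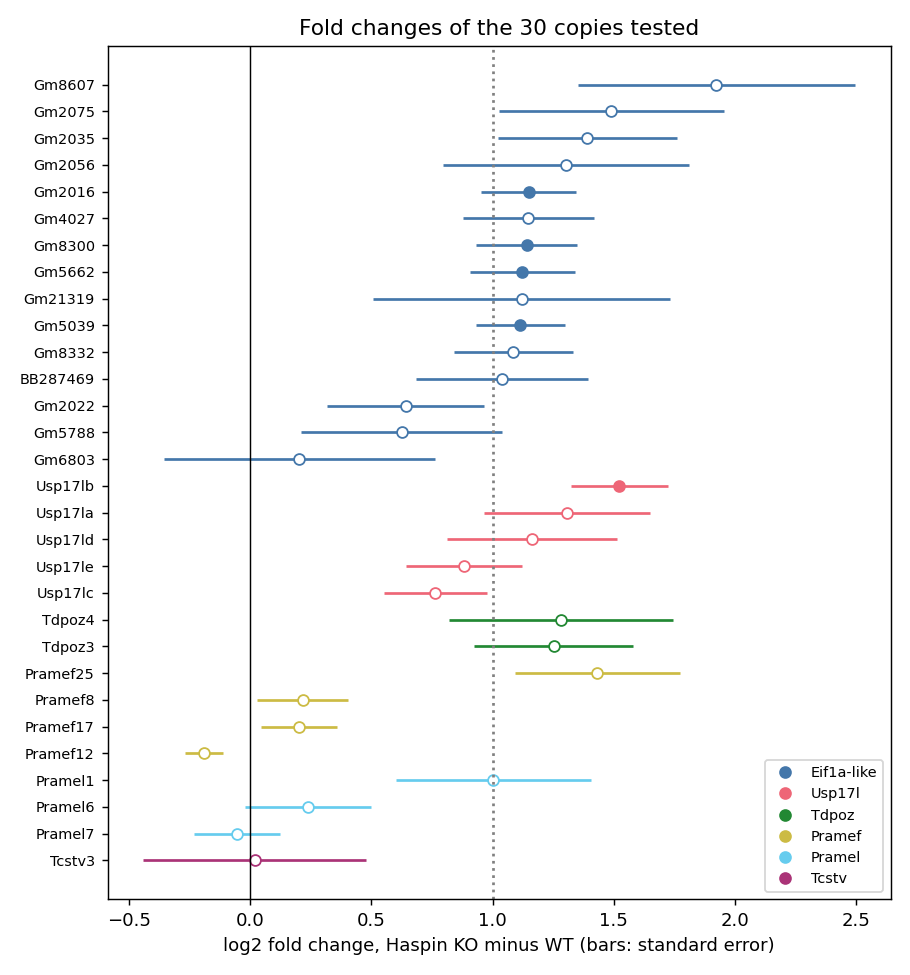
Log2 fold change (Haspin KO minus WT) of the 30 tested members by family, with standard errors. Filled points are the 5 members called higher, the dotted line marks a fold change of 2, and the values run from -0.19 for Pramef12 to 1.92 for Gm8607.

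The Tcstv genes are named after a group of transcripts that vary at the 2-cell stage. Tcstv3 had 13 and 19 counts in WT and 13 and 11 in Haspin KO, with a log2 fold change of 0.02 (standard error 0.46). Tcstv1 had 1 and 0 counts in WT and 3 and 1 in Haspin KO, all at or under the floor. No difference was detectable at this depth.

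Markers of the 2-cell-like state outside these families give the setting. Of 10 such markers 9 were tested, and all 9 had a positive log2 fold change. Called higher by edgeR were 5, all Zscan4 genes, against 0.327% of all genes tested. The list was chosen with earlier results of these data known. Its tested markers outside the Zscan4 genes were not called. They had log2 fold changes of 1.25 for Zfp352, 0.42 for Tmem92 and 2.66 for Sp110 (standard errors 0.37, 0.22 and 0.59). Sp110 had only 2 and 4 counts in WT and 13 and 16 in Haspin KO. At an unadjusted p under 0.05, 8 of the markers were higher and 0 lower. Their summed level was 70.3 and 65.5 CPM in WT and 173.7 and 139.1 CPM in Haspin KO. Zscan4d, the strongest, had 395 and 294 counts in WT and 719 and 596 in Haspin KO, with a log2 fold change of 1.39 (standard error 0.12). Duxf3, the mouse Dux gene that can start the 2-cell programme, had 3 and 2 counts in WT and 2 and 3 in Haspin KO, at the floor in every library. Among 12 regulators of the state, 11 were tested. Of these edgeR called 3 higher and 0 lower, against 0.327% and 0.501% of all genes tested. The 3 were Zscan4c, Zscan4d and Zscan4f, which are also counted among the markers. At an unadjusted p under 0.05, 6 regulators were higher and 0 lower. Dppa2, an activator of Dux, had 99.4 ± 1.28 CPM in WT and 134.8 ± 5.86 CPM in Haspin KO (n = 2 libraries each, SD). The log2 fold change of Dppa2, 0.44 (0.08), is under the fold required for a call. Dppa4, its partner, had -0.08 (0.12).

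The 2 Haspin KO libraries differed in the level of the members. Replicate 1 was above replicate 2 for 25 of the 30 members, with a median ratio of 1.48 in CPM, against a median of 1.00 over all genes tested. In WT, replicate 1 was above replicate 2 for 21 of the 30 members, with a median ratio of 1.14, again against 1.00. The fibroblast markers differed between the groups as given above and hardly between the 2 Haspin KO libraries, and their part in the results on the families was not tested.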

How the data were processed

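The authors trimmed the reads with Cutadapt (1.9.1), mapped them to mm10 with Hisat2 (2.0.1) and deposited raw counts per gene without normalization. HTSeq (0.6.1) is listed in the submitters' processing notes, whereas strand setting, treatment of reads with several matches and annotation release are not given in the sources used here. FPKM values were deposited beside them and follow from the counts, exonic length and library total in 100% of values within rounding.

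The counts of 15580 genes that passed edgeR's (4.0.16, in R 4.3.3) filter on low counts were TMM normalized and fitted with the quasi-likelihood test, without a block. A gene was called at a fold change over 2 with an adjusted p (Benjamini-Hochberg) under 0.05. Family sums came from a separate fit of the same kind, in which the summed counts of each family replaced its copies. The floor was 3 counts per library, 0.137 to 0.211 CPM, and covers counting error only. The code was tested on simulated data.

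Members and gene lists were chosen with earlier results of these data known. Every member passing the filter is named, as is any other with over 10 counts in a library. Non-members named are Haspin and genes from lists of relatives and partners, regulators and markers of the 2-cell-like state, stem cell, fibroblast, primitive endoderm and trophoblast markers. Of the last 2 lists, 0 of 4 and 0 of 3 genes tested were called by edgeR, with 0 and 0 at an unadjusted p under 0.05. Alternatives were DESeq2 (1.42.0), its size factors, library totals, no filter, no minimum fold change, thinning to the smallest total, a replicate block, the top copy in place of the sum, and leaving out each library. Coding sequences and shared windows came from GENCODE transcripts of GRCm38 and were aligned with Biopython (1.88). Promoters came from RefSeq (GRCm38.p6). Protein sequences were not analysed here.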

Additional observations from a re-analysis of the deposited data

How the results depend on the processing

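DESeq2's size factors, library totals and no minimum fold change left the number of members called higher at 5, DESeq2's test gave 7 and thinning to the smallest total 4. Without a filter 12 were called, and with the replicate block 16, the 5 included each time. Of all genes tested, 51 of 15580 were called higher in the main fit and 240 of 15580 with the block. Without a filter these were 125 of 28670, and with DESeq2's test 47 of 28670. The number of calls over all genes thus moved with the setting as well. The replicate numbers tie no libraries together in the labels, and same-numbered libraries deviated together with r = 0.34 over 15580 genes, which are not independent. With 1 library left out the number ranged from 1 to 14, the 14 without Haspin KO replicate 2 and the 1 without any of the others. Called lower were 0 members under every alternative. In fits without 1 library, a lone library was taken to vary like the other group.

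The sums of the Eif1a-like, Usp17l and Tdpoz families kept a positive log2 fold change under every alternative run. With 1 library left out these ranged from 0.77 to 1.41 for Eif1a-like and from 0.87 to 1.41 for Usp17l, both with an adjusted p over 0.05 without WT replicate 2 and a fold change under 2 without Haspin KO replicate 1, and from 1.16 to 1.51 for Tdpoz, with an adjusted p over 0.05 without either WT library. The Tdpoz sum also had an adjusted p over 0.05 with DESeq2's test (1.35) and with Tdpoz3 alone in its place (1.25). The block changed no call of a sum, with 1.10, 1.16 and 1.35 for these 3 families. The Pramef sum turned to 0.29 without Pramef12 and Pramef12os, a setting chosen after seeing the data. With 1 library left out, the Pramel sum ranged from -0.20 to 0.41 and the Tcstv sum from -0.17 to 0.61, and DESeq2 gave the latter no adjusted p. Single members that turned sign in this way were Pramel6 (-0.18 to 0.64), Pramel7 (-0.33 to 0.17), Pramef8 (-0.080 to 0.46), Pramef17 (-0.020 to 0.39), Gm21319 (-0.11 to 1.77), Tcstv3 (-0.39 to 0.49) and Gm6803 (-0.52 to 0.77). Tcstv3 also turned without a filter (-0.012), with DESeq2 (-0.0091) and after thinning (-0.12), as Gm6803 did after thinning (-0.071). The causes were not tested. Of the remaining values of single members, 241 kept their direction and side of the threshold (adjusted p and fold change), 29 newly passed it and 13 no longer did. Depth limits the Tdpoz and Tcstv families and the 22 members under the filter.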
